A study of Arabidopsis thaliana with 20 samples.

Results

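The xyloglucan endotransglucosylase/hydrolase (XTH) family was followed in whole roots of grafted Arabidopsis thaliana. Its 33 members, XTH1 to XTH33, were taken by gene code from the 32833 gene codes counted. Of these members 28 were counted well enough to be tested among 20862 genes, and 5 (XTH1, XTH2, XTH3, XTH6 and XTH25) were not. The grafts joined Col-0 wild type (WT) with cpd, a mutant of CPD, a cytochrome P450 gene of brassinosteroid synthesis, so that all 4 combinations of shoot and root were present. Names give the shoot before the root: cpd/cpd, WT/cpd, cpd/WT and WT/WT, with 5 replicates each and 3 roots pooled in each replicate. The labels give no cpd allele, plant age or growth condition, and only the cpd/cpd titles lack the word Grafted. If cpd/cpd differed in grafting, that cannot be told apart from its genotype. Whether replicates differ in plate or session is not stated either, so the p-values describe only how far these pools spread.

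Xyloglucan is a hemicellulose that coats and tethers cellulose microfibrils in the growing cell wall. XTH enzymes are secreted to the wall, where they cut a xyloglucan chain and rejoin the cut end to another chain, and a few members instead hydrolyse the chain. Brassinosteroids, steroid hormones of cell elongation, are known to raise the transcript of XTH22, also called TCH4, which touch raises as well.

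The family shares a catalytic stretch, shown here because members that rose and members that fell carry it alike, XTH11 apart. The RefSeq models of the TAIR10.1 assembly gave coding lengths of 810 to 1074 bases, and a search of their translations placed the stretch once in each of the 33 members. The 27 coding bases below run 5′ to 3′, with capitals on the 3 codons of its acidic residues. Acid codons stood at all 3 places in 32 of 33 members. XTH11, whose transcript differed between grafts, had 1 of 3.
XTH14: gatGAGattGACttcGAGtttttggga
XTH26: gatGAGataGACttcGAGttcctagga
XTH21: gacGAGataGATttcGAGtttttgggg
XTH20: gatGAAataGATtttGAGttcttggga
XTH9: aacGAAttcGATtttGAGttcttaggg
XTH11: gatGAGctcTGTttcCAGatcttggga

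Close relatives were still largely separable in sequence. XTH17 and XTH18 had the highest coding identity, 92.2%, followed by XTH12 and XTH13 with 89.7% and XTH18 and XTH19 with 89.0%. Over exact stretches of 50 bases, XTH12 and XTH13 shared none with another coding gene's transcript, while XTH19 shared 1.63% of its stretches with XTH17 and XTH18, XTH18 1.56% and XTH17 0.171%. Counts of XTH17, XTH18 and XTH19 are the least certain for that reason. The strand setting of the counting is not given in the sources used here, and XTH15 overlapped 1 gene on the opposite strand, AT4G14120.

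The 250 bases before the gene start are shown for 3 of the called members as examples. These are XTH14 and XTH26, known from root hairs, and XTH23, a touch-inducible relative of XTH22. All 3 lie on the plus strand of TAIR10.1, at chr4:13130041-13130290 for XTH14, chr4:14244040-14244289 for XTH26 and chr4:13128144-13128393 for XTH23. Capitals mark a root hair element core (TG and CACG with 4 or 5 bases of any kind between them) or a brassinosteroid response element (CGTGTG or CGTGCG), searched on both strands.
XTH14: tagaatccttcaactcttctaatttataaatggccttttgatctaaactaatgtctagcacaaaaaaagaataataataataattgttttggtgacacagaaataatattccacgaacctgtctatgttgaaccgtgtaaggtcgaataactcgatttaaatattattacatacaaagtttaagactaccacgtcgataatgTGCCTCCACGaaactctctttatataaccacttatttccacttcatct
XTH26: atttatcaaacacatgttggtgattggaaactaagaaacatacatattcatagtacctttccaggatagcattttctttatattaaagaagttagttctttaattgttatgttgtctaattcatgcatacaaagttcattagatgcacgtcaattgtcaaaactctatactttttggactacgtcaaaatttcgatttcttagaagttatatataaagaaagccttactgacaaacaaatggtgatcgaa
XTH23: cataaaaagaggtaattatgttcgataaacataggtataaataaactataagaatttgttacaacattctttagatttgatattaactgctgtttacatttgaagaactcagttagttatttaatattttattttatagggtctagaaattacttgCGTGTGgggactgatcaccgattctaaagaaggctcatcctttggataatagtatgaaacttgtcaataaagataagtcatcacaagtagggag
The root hair element core was present before XTH14, XTH19 and XTH30, 9.09% of members against 9.02% of 27443 coding genes. The brassinosteroid response element was present before XTH2, XTH8, XTH23 and XTH25, 12.1% of members against 6.71% of all, and the G-box CACGTG before 0 members against 6.49% of all. E-boxes (CANNTG), which include the G-box, stood before 63.6% of members against 55.3% of all. A match in this window is a description of letters only.

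Library totals were 22979686 to 32337043 counts in cpd/cpd, 13417029 to 29662209 counts in WT/cpd, 22040458 to 28857374 counts in cpd/WT and 15892095 to 23942561 counts in WT/WT. CPD followed the root genotype, with at most 4.47 CPM (reads per 1 M of the scaled library) in a cpd root and at least 34.1 CPM in a WT root. The 8 root markers chosen for the tissue check were all counted in every group, and none was at 0. Of these, CASP1 was called lower than in WT/WT in cpd/cpd and WT/cpd (0.614 and 0.499 times WT/WT, adjusted p = 0.024 and 0.0028) and TIP2-3 in cpd/cpd and cpd/WT (0.458 and 0.421 times WT/WT, adjusted p = 0.023 and 0.013). The 10 shoot markers were counted too. Their sums were 1393 to 2815 CPM in cpd/cpd, 1123 to 2441 CPM in WT/cpd, 1459 to 2610 CPM in cpd/WT and 779 to 1461 CPM in WT/WT. Of the 10, 1, 4 and 7 were called higher in cpd/cpd, WT/cpd and cpd/WT than in WT/WT. Of all genes, 3.72%, 6.19% and 6.21% were called higher in the same comparisons. The part of either list in the results on XTH members was not tested.

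Levels within the family spanned several orders of magnitude. To compare members, CPM were divided by transcript length (CPM per kb). XTH24, also known as MERI5B, led with a mean of 177 CPM per kb over all 20 libraries, followed by XTH9 (147), XTH4 (101), XTH7 (94.7) and XTH22 (79.4). These 5 members held 51.3% of the family's summed level per kb. At the low end of the tested members stood XTH26 (1.5 CPM per kb), XTH11 (0.603) and XTH29 (0.211). The summed level of the 33 members was 1607 ± 131 CPM in cpd/cpd, 1517 ± 304 CPM in WT/cpd, 1699.7 ± 201 CPM in cpd/WT and 1513 ± 83.7 in WT/WT (SD, n = 5 each). The ranges of the groups overlapped, but the cpd/cpd and cpd/WT means lay above the highest WT/WT library (1599 CPM). Differences in the sum were not tested, and single members moved both ways.

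**Figure D1:**
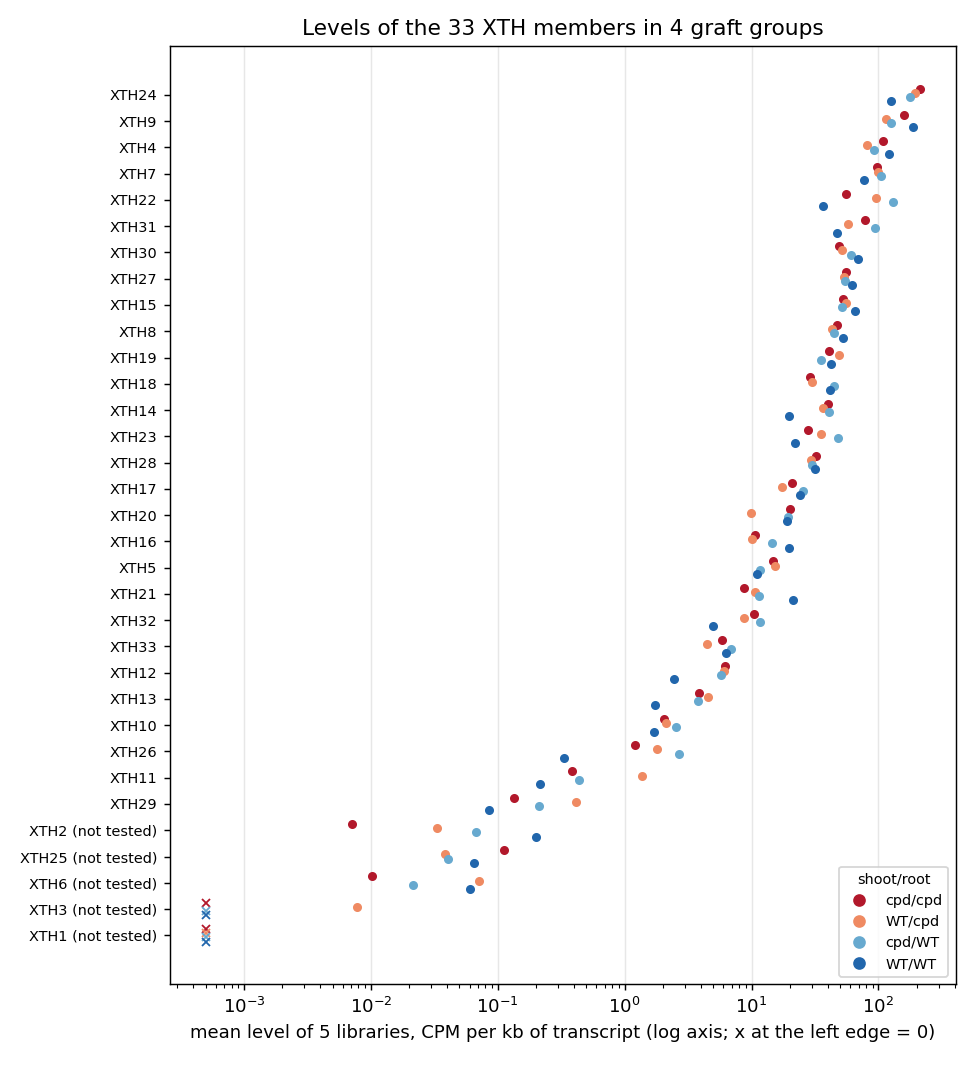
Mean level of each of the 33 XTH members in CPM per kb of transcript on a log axis, 1 point per graft group of 5 libraries, ordered by the mean over all libraries, with crosses at the left edge for a mean of 0. XTH24, XTH9 and XTH4 lead at 177, 147 and 101 CPM per kb over all libraries, and the 5 members that were not tested lie at the bottom.

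Among the untested members, XTH1 had 0 counts in all 20 libraries. A count of 0 allows up to 3 counts in a library, or 0.0942 to 0.224 CPM depending on its depth, for counting error only. XTH3 had 1 count in all. XTH25 had 36 counts and XTH6 had 23. XTH2 had 1 count over the 5 cpd/cpd libraries, 4 counts in WT/cpd, 8 counts in cpd/WT and 20 counts in WT/WT, where every library held at least 1.

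Calls below rest on an adjusted p under 0.05 from edgeR's quasi-likelihood F test, adjusted by Benjamini-Hochberg across the 20862 genes. WT/cpd and cpd/WT roots each differed from WT/WT in many members. Between WT/cpd and WT/WT 12 of 28 members were called (42.9%, against 9.45% of all genes), 7 higher (6.19% of all genes were) and 5 lower (3.26%). The 7 include XTH29, which reached 0.895 CPM in WT/cpd (median 0.551 CPM) and at most 0.452 CPM in any library of the other groups. Since WT/cpd helped XTH29 pass the filter on low counts, its call is not independent of that filter. Between cpd/WT and WT/WT 9 of 28 were called (32.1%, against 9.11%), 7 higher (6.21%) and 2 lower (2.9%). Between cpd/cpd and WT/WT 7 of 28 were called (25%, against 6.36%), 4 higher (3.72%) and 3 lower (2.63%). These comparisons share the WT/WT libraries.

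The comparisons that leave WT/WT out called few members. Between cpd/cpd and cpd/WT 0 of 28 were called, against 1.86% of all genes (0.82% higher and 1.04% lower), and between cpd/cpd and WT/cpd 2 of 28 (7.14%, against 4.66%), 1 higher (1.42%) and 1 lower (3.25%). The median log2 fold change of the 28 members was -0.12 for cpd/cpd over cpd/WT (0.02 over all genes) and 0.02 for cpd/cpd over WT/cpd (0.02 over all genes). It was 0.17 for cpd/cpd over WT/WT (0.01 over all genes), 0.25 for WT/cpd over WT/WT (-0.01) and 0.11 for cpd/WT over WT/WT (-0.01). XTH11 and XTH29 did not pass a stricter filter (at least 1 CPM in 5 libraries), and both had their highest levels in WT/cpd, so the members that passed are not a neutral sample of the family. In all, 17 members were called in at least 1 of 6 comparisons and 11 in none. The 6 comparisons overlap, and the share of all genes called in at least 1 of them is not given here. This tally therefore does not set the family against other genes.

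**Figure D2:**
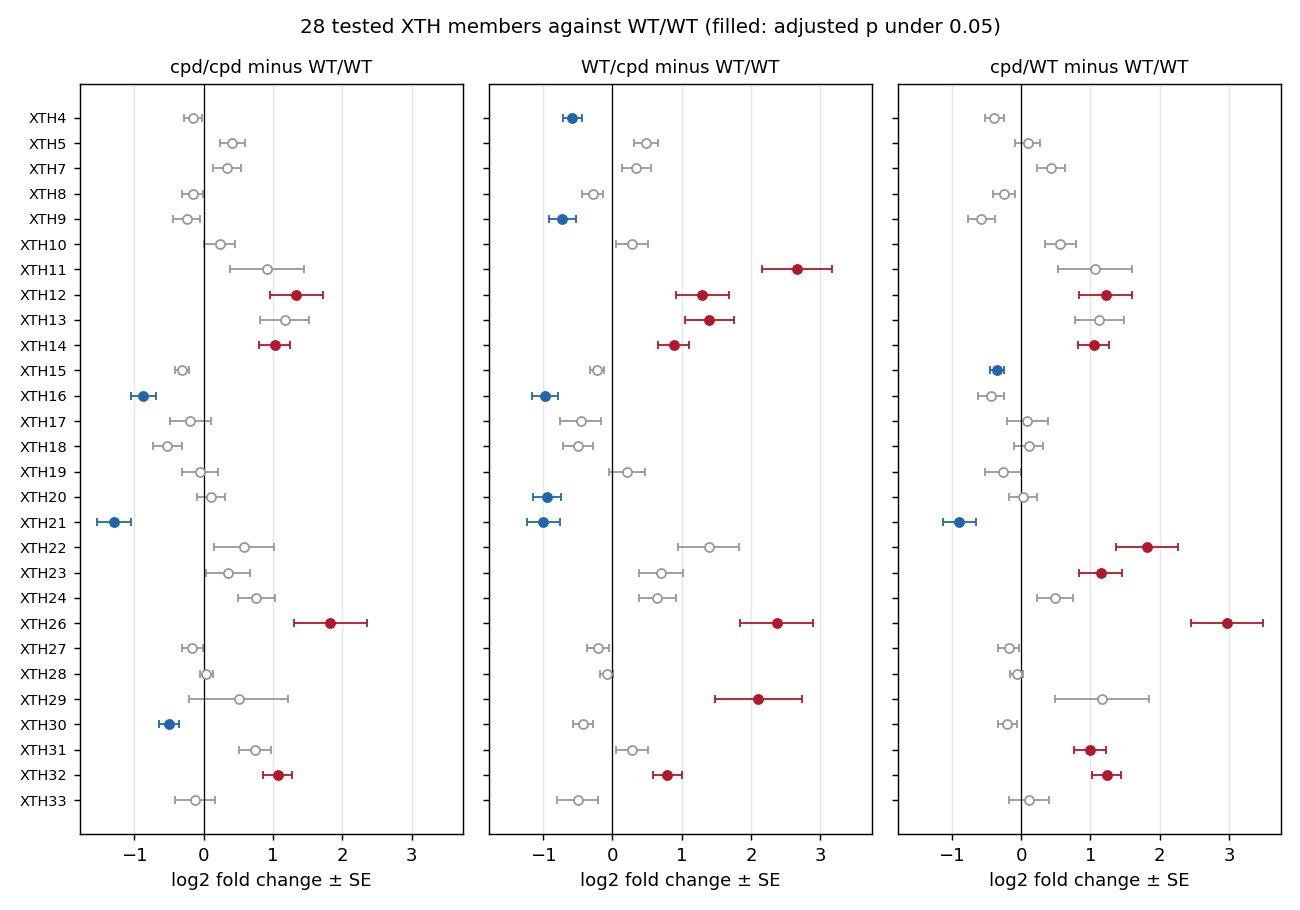
Log2 fold change (± SE) of the 28 tested XTH members against WT/WT, for cpd/cpd, WT/cpd and cpd/WT, with filled points for an adjusted p under 0.05. XTH32, XTH26, XTH14 and XTH12 are filled on the right in all 3 panels and XTH21 on the left in all 3.

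XTH14, XTH26 and XTH12 were higher than in WT/WT in all 3 groups that carried cpd in shoot, root or both, and XTH13 in WT/cpd. XTH14 and XTH26 are known from elongating root cells and root hairs, and XTH12 and XTH13 are close relatives of XTH14 (76.9% and 77.3% coding identity). XTH14 (AT4G25820, chr4:13130291-13131860) had 46.8, 42.3, 54.5, 28.2 and 61.4 CPM in cpd/cpd, 48.2, 31.5, 34.3, 47.6 and 50.7 in WT/cpd and 37.9, 60.9, 56.7, 45.2 and 36.5 in cpd/WT, against 14.4, 22.2, 23.4, 33.9 and 20.6 in WT/WT. All cpd/WT libraries lay above all WT/WT libraries, whereas WT/WT replicate 4 reached into the range of cpd/cpd and WT/cpd. XTH14 was called in cpd/cpd (log2 1.03 ± 0.22, SE, adjusted p = 0.011), WT/cpd (0.89 ± 0.22, adjusted p = 0.017) and cpd/WT (1.05 ± 0.22, adjusted p = 0.00998) over WT/WT, with means of 46.6 ± 12.6, 42.5 ± 8.87 and 47.4 ± 11 CPM over 22.9 ± 7.04 CPM (SD, n = 5 each).

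XTH26 (AT4G28850, chr4:14244290-14246037) showed the largest fold change of a member between groups, at a low level. It had 1.92, 0.792, 1.75, 0.737 and 1.90 CPM in cpd/cpd, 3.50, 1.03, 1.86, 2.09 and 2.1 in WT/cpd and 2.36, 4.21, 3.79, 3.73 and 1.74 in cpd/WT, against 0, 0.333, 1.03, 0.399 and 0.188 in WT/WT. Every cpd/WT library exceeded every WT/WT library, and WT/WT replicate 3 overlapped the lower libraries of cpd/cpd and WT/cpd. The rise was 7.84-fold in cpd/WT (log2 2.97 ± 0.52, adjusted p = 0.0037), 5.16-fold in WT/cpd (2.37 ± 0.53, adjusted p = 0.0089) and 3.55-fold in cpd/cpd (1.83 ± 0.53, adjusted p = 0.045). Without WT/WT replicate 3 the log2 values were 2.59 in cpd/cpd, 3.14 in WT/cpd and 3.75 for cpd/WT. The call in cpd/cpd was lost in 16 of 29 alternatives (adjusted p up to 0.11).

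XTH13 (AT5G57540) and XTH12 (AT5G57530), tandem neighbours 1097 bases apart on chromosome 5, were counted at lower levels than XTH14. XTH13 had 4.81, 3.42, 6.43, 1.17 and 5.66 CPM in cpd/cpd, 4.92, 3.34, 4.21, 5.75 and 6.96 in WT/cpd and 4.82, 4.30, 4.61, 4.31 and 2.90 in cpd/WT, against 0.766, 2.37, 2.80, 1.68 and 1.94 in WT/WT. WT/cpd and cpd/WT did not overlap WT/WT, while cpd/cpd replicate 4 fell inside its range. The gene was called in WT/cpd (log2 1.40 ± 0.35, adjusted p = 0.018) and narrowly missed the threshold in cpd/WT (1.13 ± 0.35, adjusted p = 0.051) and cpd/cpd (1.17 ± 0.35, adjusted p = 0.053). XTH12 averaged 7.09 ± 3.29 CPM in cpd/cpd, 6.93 ± 2.16 in WT/cpd and 6.54 ± 1.91 in cpd/WT, against 2.79 ± 1.12 in WT/WT (SD, n = 5 each). Its calls in cpd/cpd, WT/cpd and cpd/WT (adjusted p = 0.04, 0.036 and 0.049) were lost in 10, 7 and 18 of 29 alternatives.

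Some markers of root hair cells moved beside these members. These markers were chosen with earlier results of these data known, so they are not independent of them. Of 10 root hair markers, 4 were called higher in cpd/cpd, 3 in WT/cpd and 3 in cpd/WT against WT/WT, and 0 were lower. Of all genes, 3.72%, 6.19% and 6.21% were called higher. The called markers were PRP1, PRP3 and COW1 each time and LRX1 in cpd/cpd. The other markers were not called, among them EXPA7 (17.8 CPM in WT/cpd and 18.4 in WT/WT) and RSL2 (9.47 and 9.33 CPM). PRP1 was 3.09-fold, 3.79-fold and 3.06-fold higher in cpd/cpd, WT/cpd and cpd/WT. The lowest, median and highest summed levels were 146, 297 and 321 CPM in cpd/cpd, 203, 244 and 288 CPM in WT/cpd, 197, 262 and 306 CPM in cpd/WT, and 137, 157 and 239 CPM in WT/WT, and none was at 0 in any group. The library with the lowest sum of its group was the one with the lowest XTH14 in cpd/cpd (replicate 4), WT/cpd (replicate 2), cpd/WT (replicate 5) and WT/WT (replicate 1). In whole roots more root hair cells and more RNA per cell cannot be told apart, and the part of cell number in these results was not tested.

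**Figure D3:**
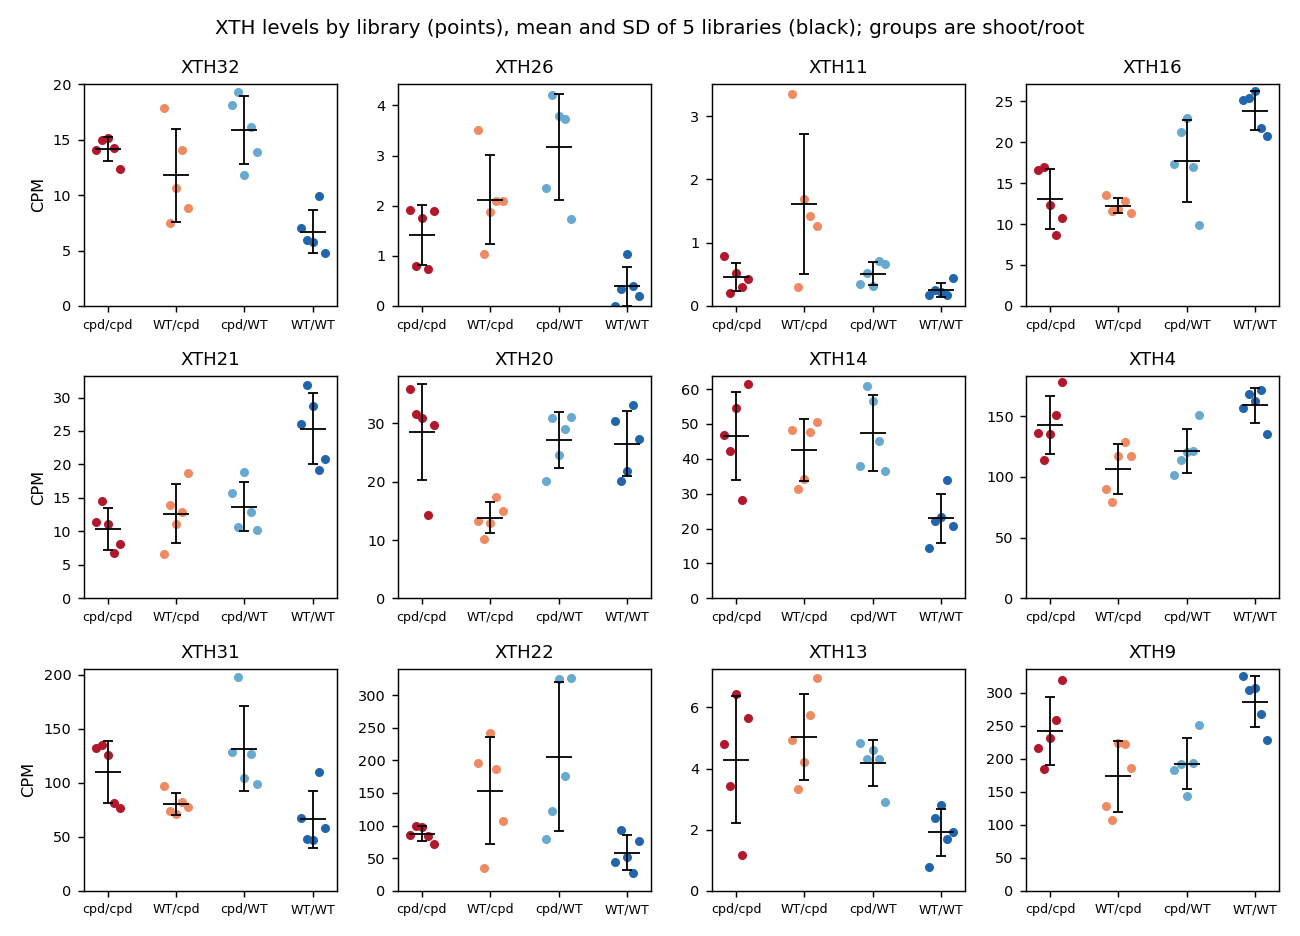
CPM in each library (points) with the mean and SD of 5 libraries (black) for the 12 called XTH members with the smallest adjusted p, grouped as shoot/root. XTH26, XTH14, XTH13 and XTH32 have their lowest means in WT/WT, XTH21 and XTH16 their highest, and XTH20 is low in WT/cpd with 10.2 to 17.4 CPM.

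XTH31 and XTH32 make up the subgroup known for xyloglucan-hydrolysing activity, shown for XTH31, and both rose in cpd/WT against WT/WT. XTH32 (AT2G36870, chr2:15472607-15474828) had 14.1, 15, 15.1, 14.3 and 12.4 CPM in cpd/cpd, 17.9, 7.5, 10.6, 14.1 and 8.86 in WT/cpd and 18.1, 19.3, 11.8, 16.2 and 13.9 in cpd/WT, against 7.07, 5.95, 5.81, 9.93 and 4.82 in WT/WT. Neither cpd/cpd nor cpd/WT overlapped WT/WT, and WT/cpd did. XTH32 rose 2.35-fold in cpd/WT (log2 1.23 ± 0.21, adjusted p = 0.0033, the smallest in the family), by log2 1.07 ± 0.21 in cpd/cpd (adjusted p = 0.006) and by 0.79 ± 0.21 in WT/cpd (adjusted p = 0.024). The WT/cpd call was lost in 5 of 29 alternatives (adjusted p up to 0.091), among them the fit without WT/cpd replicate 1.

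XTH31 (AT3G44990) was the sixth most abundant member and is also known for a role in aluminium sensitivity of roots. It had 132, 135, 125, 81.6 and 76.4 CPM in cpd/cpd, 96.7, 73.8, 71.3, 82.3 and 77.9 in WT/cpd and 129, 198, 104, 127 and 99.3 in cpd/WT, against 67.7, 47.7, 46.8, 110.4 and 57.8 in WT/WT. WT/WT replicate 4 lay within the range of cpd/cpd and cpd/WT and above every WT/cpd library, and the other 4 WT/WT libraries lay below every library of the other groups. The rise in cpd/WT was called (log2 0.99 ± 0.23, adjusted p = 0.015). In cpd/cpd and WT/cpd the log2 values were 0.74 ± 0.23 (adjusted p = 0.062) and 0.28 ± 0.23 (adjusted p = 0.5).

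XTH21 stood on the other side. XTH21 (AT2G18800, chr2:8144881-8146477), known for a role in primary root growth, was lower in every group with cpd in either part. It had 11.4, 14.6, 11.1, 6.72 and 8.09 CPM in cpd/cpd, 6.56, 14, 11.1, 12.8 and 18.7 in WT/cpd and 15.8, 10.7, 18.9, 12.9 and 10.2 in cpd/WT, against 26.0, 31.9, 28.7, 19.2 and 20.9 in WT/WT. No library of the other groups reached the lowest WT/WT library. It fell by 1.29 ± 0.24 on the log2 scale in cpd/cpd (adjusted p = 0.0048), by 0.99 ± 0.24 in WT/cpd (adjusted p = 0.014) and by 0.89 ± 0.24 in cpd/WT (adjusted p = 0.028). The cpd/WT call was lost in 6 of 29 alternatives, each leaving out 1 library of these groups (adjusted p up to 0.062).

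XTH16 (AT3G23730) was called lower than in WT/WT in cpd/cpd and WT/cpd, the groups with a cpd root. It had 16.6, 16.9, 12.4, 8.67 and 10.7 CPM in cpd/cpd, 13.6, 11.6, 11.9, 12.8 and 11.4 in WT/cpd and 17.4, 21.3, 22.9, 17 and 9.93 in cpd/WT, against 25.1, 25.4, 26.2, 21.8 and 20.8 in WT/WT. The cpd/cpd and WT/cpd libraries lay below all WT/WT libraries, and cpd/WT overlapped them. The fold changes were -0.87 ± 0.19 in cpd/cpd (adjusted p = 0.0096), -0.97 ± 0.19 in WT/cpd (adjusted p = 0.0045) and -0.43 ± 0.18 in cpd/WT (adjusted p = 0.14) on the log2 scale. For cpd/cpd over cpd/WT its value was -0.43 ± 0.19 and was not called (adjusted p = 0.2). Whether the effect of the root genotype on XTH16 differs between shoots was tested and not called (0.53 ± 0.26, adjusted p = 0.22).

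Smaller falls were called for relatives expressed at higher levels. XTH15 (XTR7, AT4G14130), known from shade responses and the closest relative of XTH16 (81.7% coding identity), averaged 61.8 ± 7.68 CPM in cpd/WT and 78.5 ± 8.74 in WT/WT (SD, n = 5 each). The ranges, 52.6 to 68.1 CPM in cpd/WT and 68.8 to 87.2 CPM in WT/WT, did not overlap, and the fall of 0.35 ± 0.10 on the log2 scale (adjusted p = 0.036) was lost in 8 of 29 alternatives. XTH30 (AT1G32170) ran from 56.4 to 84.9 CPM in cpd/cpd and from 88.3 to 119 CPM in WT/WT, and fell by 0.50 ± 0.14 (adjusted p = 0.039), also lost in 8 of 29 alternatives.

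XTH20, XTH9 and XTH4 had their lowest means in WT/cpd, and for each the effect of a cpd root differed between shoots. XTH20 (AT5G48070, chr5:19481897-19483527) is known from vascular tissue of mature root. It had 36.0, 31.6, 31.0, 14.3 and 29.7 CPM in cpd/cpd, 13.3, 10.2, 12.9, 17.4 and 15.1 in WT/cpd and 20.1, 30.9, 24.6, 29.1 and 31.1 in cpd/WT, against 30.4, 20.1, 21.8, 33.1 and 27.4 in WT/WT. WT/cpd did not overlap WT/WT or cpd/WT, and in cpd/cpd replicate 4 alone lay in its range. XTH20 fell by 0.94 ± 0.21 on the log2 scale in WT/cpd against WT/WT (adjusted p = 0.0083) and was 2.06-fold higher in cpd/cpd than in WT/cpd (log2 1.05 ± 0.21, adjusted p = 0.0076). For cpd/cpd over cpd/WT the value was 0.07 ± 0.20 (adjusted p = 0.88). The interaction was 1.01 ± 0.29 (adjusted p = 0.035) and was lost in 14 of 28 alternatives (adjusted p up to 0.072).

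XTH9 and XTH4 are abundant members known from the shoot apex and from stem xylem. XTH9 (AT4G03210) had 216, 184, 232, 259 and 319.6 CPM in cpd/cpd, 128, 107, 224, 223 and 185 in WT/cpd and 183, 192, 144, 193 and 251 in cpd/WT, against 325, 304, 307, 268 and 229 in WT/WT. XTH4 (AT2G06850) had 136, 114, 135, 151 and 178 CPM in cpd/cpd, 90.2, 79.1, 117, 129 and 117 in WT/cpd and 101, 114, 120.3, 121 and 151 in cpd/WT, against 156, 169, 162, 172 and 136 in WT/WT. For both, all WT/cpd libraries lay below all WT/WT libraries and the other groups overlapped with WT/WT. Both were also lower in cpd/WT than in WT/WT, short of a call. The log2 values there were -0.57 ± 0.19 for XTH9 (adjusted p = 0.066) and -0.39 ± 0.13 for XTH4 (adjusted p = 0.074).

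XTH4 fell by 0.58 ± 0.13 on the log2 scale in WT/cpd against WT/WT (adjusted p = 0.011), while for cpd/cpd over cpd/WT its value was 0.23 ± 0.13 (adjusted p = 0.35), with an interaction of 0.81 ± 0.19 (adjusted p = 0.014). XTH9 fell by 0.72 ± 0.19 in WT/cpd (adjusted p = 0.023), came to 0.33 ± 0.19 for cpd/cpd over cpd/WT (adjusted p = 0.35), and had an interaction of 1.05 ± 0.27 (adjusted p = 0.023). The calls of XTH9 were lost in 5 of 29 alternatives for the fall and in 3 of 28 for the interaction. Those of XTH4 held in all.

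The touch-inducible members XTH22 and XTH23 had their highest means in the reciprocal grafts. XTH22 (TCH4, AT5G57560, chr5:23307006-23308680) had 85.2, 100.1, 98.0, 83.6 and 71.6 CPM in cpd/cpd, 195, 34.6, 243, 186 and 107 in WT/cpd and 80.2, 122, 325, 176 and 326 in cpd/WT, against 44.5, 93.5, 51.5, 26.8 and 76.3 in WT/WT. WT/cpd and cpd/WT spread widely and overlapped WT/WT, with WT/cpd replicate 2 at the low end. XTH22 rose 3.52-fold in cpd/WT over WT/WT (log2 1.81 ± 0.45, adjusted p = 0.019, and 0.051 without WT/WT replicate 1). In WT/cpd over WT/WT the log2 value was 1.39 ± 0.44 (adjusted p = 0.053) and in cpd/cpd over WT/WT it was 0.58 ± 0.44 (adjusted p = 0.47). The interaction was -2.62 ± 0.62 (adjusted p = 0.015) and held in all 28 alternatives.

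XTH23 (XTR6, AT4G25810), known for a role in lateral root formation, had 34.2 to 41.3 CPM in cpd/cpd, 15.9 to 68.5 CPM in WT/cpd and 29.4 to 102 CPM in cpd/WT, against 26.3 to 33.8 CPM in WT/WT. Its rise in cpd/WT (log2 1.14 ± 0.32, adjusted p = 0.03) was lost in 5 of 29 alternatives, and its interaction (-1.49 ± 0.44, adjusted p = 0.044) in 18 of 28. XTH23 ends 363 bases before XTH14 on the same strand. In cpd/WT over WT/WT both were called higher, XTH14 by log2 1.05 ± 0.22 (adjusted p = 0.00998) and XTH23 as given above. In WT/cpd and in cpd/cpd over WT/WT only XTH14 was called. For cpd/cpd over WT/cpd the log2 value of XTH14 was 0.14 ± 0.22 (adjusted p = 0.76), that of XTH23 -0.35 ± 0.31 (adjusted p = 0.55).

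A list of 11 touch and rapid response genes moved in the same libraries. It was chosen with earlier results of these data known, so it is not independent of them. Against WT/WT 8 of 11 were called higher in WT/cpd (6.19% of all genes were) and 8 of 11 in cpd/WT (6.21%). Among them were TCH2, WRKY40 and MYB15. In cpd/cpd 0 of 11 were called higher (3.72% of all genes were). TCH2, a calmodulin-like gene, was 2.37-fold higher in WT/cpd, 2.52-fold higher in cpd/WT and at 1.05 times WT/WT in cpd/cpd (adjusted p = 0.033, 0.027 and 0.94). The interaction was negative and called for 10 of 11, against 5.43% of all genes. The lowest, median and highest sums were 219, 328 and 474 CPM in cpd/cpd, 212, 989 and 1541 CPM in WT/cpd, 397, 786 and 1323 CPM in cpd/WT, and 199, 260 and 466 CPM in WT/WT, and none was at 0 in any group. WT/cpd replicate 2 had both the lowest sum of its group (212 CPM, against at least 778 in the others) and its lowest XTH22 (34.6 CPM) and XTH23 (15.9 CPM). The part of handling or of any such shared response in the results on XTH22 and XTH23 was not tested.

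**Figure D4:**
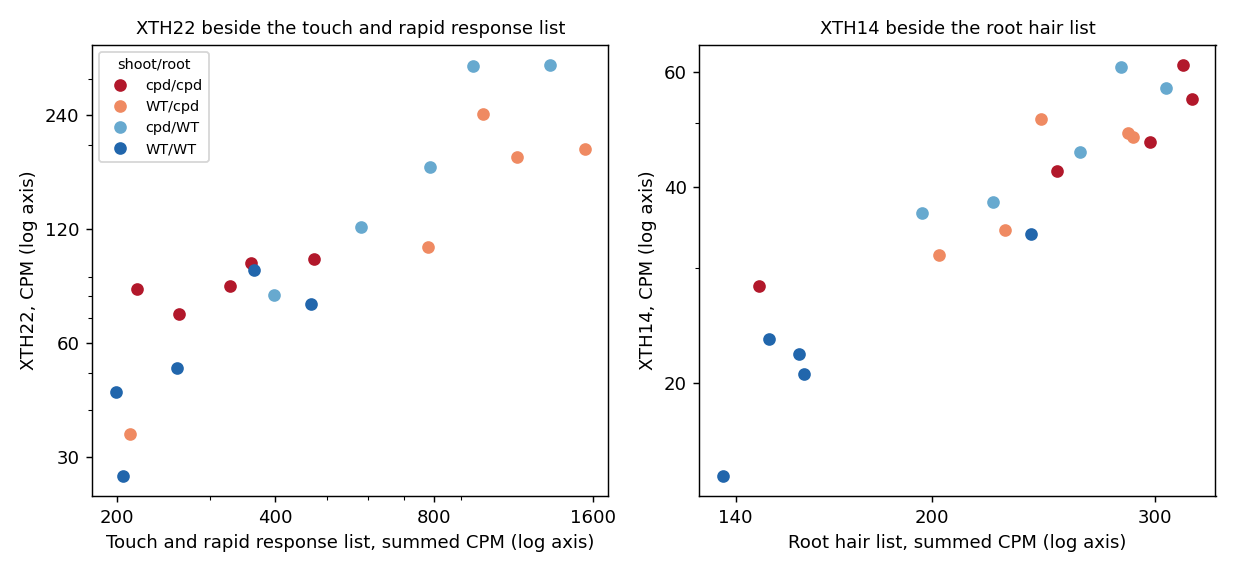
XTH22 against the summed CPM of 11 touch and rapid response genes (left) and XTH14 against the summed CPM of 10 root hair markers (right), both on log axes, 1 point per library and coloured by graft group. WT/cpd replicate 2 lies at 212 and 34.6 CPM on the left, apart from the rest of its group, and 4 of 5 WT/WT libraries lie at the lower left of the right panel.

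XTH11 and XTH29 were called at very low counts. XTH11 (AT3G48580), the member with 1 of 3 acid codons, had 0.785, 0.209, 0.520, 0.303 and 0.432 CPM in cpd/cpd, 3.35, 0.300, 1.69, 1.42 and 1.27 in WT/cpd and 0.347, 0.520, 0.316, 0.706 and 0.662 in cpd/WT, against 0.170, 0.250, 0.215, 0.177 and 0.438 in WT/WT. WT/cpd was the high group in 4 of its 5 libraries, and replicate 2 lay within WT/WT. XTH11 was higher in WT/cpd than in WT/WT (log2 2.66 ± 0.50, adjusted p = 0.0037) and lower in cpd/cpd than in WT/cpd (-1.75 ± 0.45, adjusted p = 0.031, lost in 7 of 28 alternatives), with an interaction of -2.81 ± 0.70 (adjusted p = 0.019). Its counts were 4 to 49 per library. XTH29 (AT4G18990) had 0 to 19 counts per library and averaged 0.574 ± 0.21 CPM in WT/cpd and 0.118 ± 0.175 in WT/WT (SD, n = 5 each). That call (log2 2.11 ± 0.63, adjusted p = 0.04) was lost in 11 of 27 alternatives, and the log2 value was 3.45 without WT/WT replicate 2.

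The root genotype was also compared under a cpd shoot, between cpd/cpd and cpd/WT. None of the 28 members was called by edgeR, with 6 at an unadjusted p under 0.05 (XTH16, XTH18, XTH22, XTH23, XTH26 and XTH30) and 0 by the DESeq2 Wald test. Log2 fold changes lay between -1.23 (XTH22) and 0.33 (XTH9). The 95% intervals, taken from the SE, had half-widths of 0.20 to 1.31, and 22 of 28 lay wholly between -1 and 1. The other 6 intervals allow a change beyond those values, so the missing calls do not show that these members were alike. XTH18 (AT4G30280), known from the root epidermis, had the smallest adjusted p, with 36.7 ± 5.26 CPM in cpd/cpd and 56.7 ± 10.5 in cpd/WT (SD, n = 5 each; -0.63 ± 0.21, adjusted p = 0.12). It was called lower without WT/cpd replicate 2. Without the 4 least typical libraries 3 members were called, XTH5 higher and XTH22 and XTH23 lower.

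The effect of a cpd root differed between shoots for 7 of 28 members (25%, against 7.73% of all genes). It was more positive under a cpd shoot for 3 of them, XTH4, XTH9 and XTH20 (2.3% of all genes), and more negative for 4, XTH11, XTH22, XTH23 and XTH26 (5.43%). The interaction of XTH26 was the largest in size among the 28, at -3.51 ± 0.69 on the log2 scale (adjusted p = 0.0068): it rose in WT/cpd over WT/WT, and its value for cpd/cpd over cpd/WT was -1.14 ± 0.45 (adjusted p = 0.16). XTH14 and XTH32 had interactions of -0.91 ± 0.31 (adjusted p = 0.079) and -0.96 ± 0.29 (adjusted p = 0.051) and were not called.

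**Figure D5:**
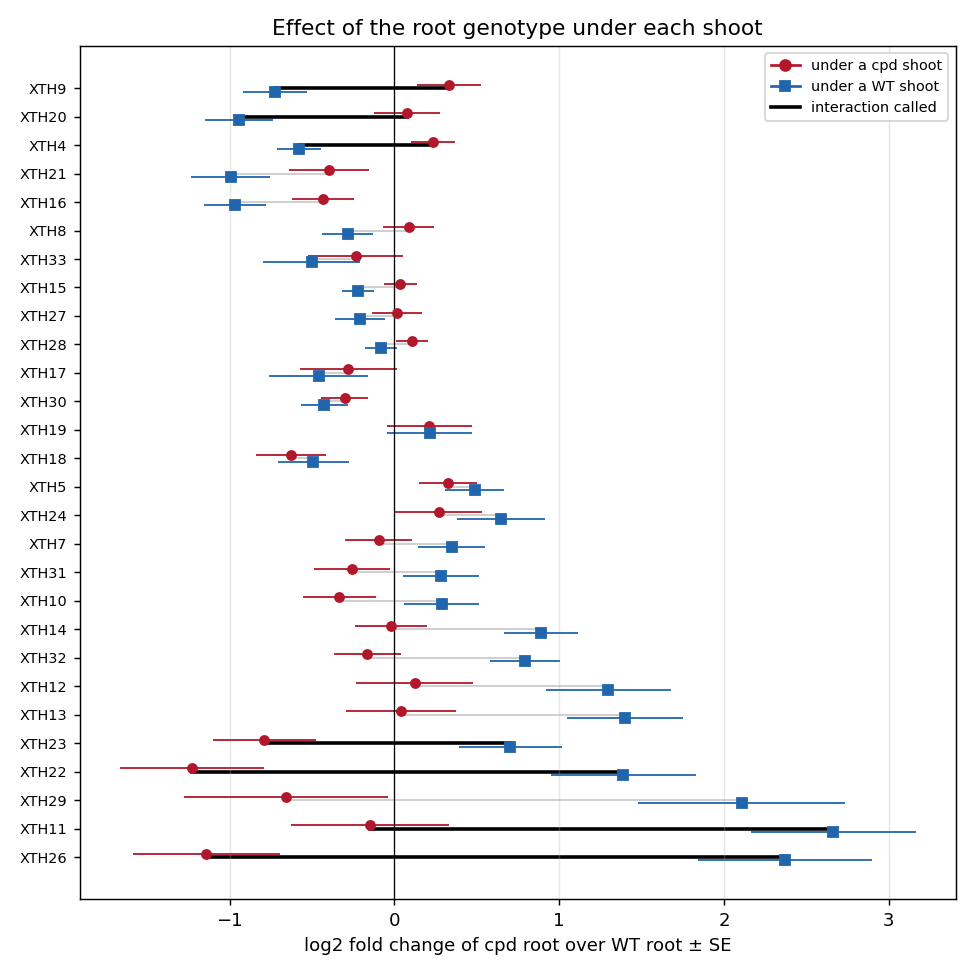
Log2 fold change (± SE) of cpd roots over WT roots for the 28 tested XTH members under a cpd shoot (red circles) and under a WT shoot (blue squares), joined by a black line where the interaction was called. The 7 black lines belong to XTH4, XTH9 and XTH20 at the top and to XTH11, XTH22, XTH23 and XTH26 at the bottom.

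The 11 members called in no comparison included the close relatives XTH17, XTH18 and XTH19 and the most abundant member, XTH24. XTH24 had 198, 152, 183, 416 and 333 CPM in cpd/cpd, 242, 155, 302, 257 and 229 in WT/cpd and 169.5, 146, 232, 202 and 315 in cpd/WT, against 94.5, 164, 189.8, 150.0 and 159 in WT/WT. The groups overlapped widely, and the largest difference was 0.76 ± 0.27 in cpd/cpd over WT/WT on the log2 scale (adjusted p = 0.094). Over all 11 members, XTH5, XTH7, XTH8, XTH10, XTH17, XTH18, XTH19, XTH24, XTH27, XTH28 and XTH33, the group differences ran from -0.63 to 0.76, and the smallest adjusted p was 0.09. XTH5 (AT5G13870) averaged 28.2 ± 5.01 CPM in cpd/cpd, 29.7 ± 8.03 CPM in WT/cpd, 22.6 ± 4.41 CPM in cpd/WT and 21.1 ± 3.46 in WT/WT. XTH7 (AT4G37800) averaged 126 ± 19.4, 127 ± 38.1 and 135 ± 31.5 CPM in cpd/cpd, WT/cpd and cpd/WT, against 99.9 ± 19.9 CPM in WT/WT. The means of both lay lowest in WT/WT, but neither was called in any comparison. For XTH5 the log2 value over WT/WT was 0.49 ± 0.18 in WT/cpd (adjusted p = 0.09) and 0.42 ± 0.18 in cpd/cpd (adjusted p = 0.16). XTH17 (AT1G65310), a root-expressed relative of XTH18, averaged 25.5 ± 8.21 CPM in cpd/cpd, 21.3 ± 7.77 CPM in WT/cpd, 31 ± 13.6 CPM in cpd/WT and 29.2 ± 5.2 in WT/WT. XTH19 (AT4G30290), known for a role in lateral roots, averaged 54.4 ± 19.2 CPM in cpd/cpd, 65.1 ± 27 CPM in WT/cpd, 47 ± 8.49 CPM in cpd/WT and 56.1 ± 10.8 in WT/WT. Its order over the groups was not that of XTH18, and counts of these relatives carry the uncertainty given above. XTH33 (AT1G10550), a member predicted to be anchored in the plasma membrane, averaged 7.07 ± 1.28 CPM in cpd/cpd, 5.35 ± 2.57 CPM in WT/cpd, 8.33 ± 2.55 CPM in cpd/WT and 7.66 ± 2.84 in WT/WT. XTH27 (AT2G01850), known from leaf vein development, averaged 85.3 ± 18.8 CPM in cpd/cpd, 82.8 ± 12.4 CPM in WT/cpd, 84.3 ± 11.1 CPM in cpd/WT and 95.7 ± 19.5 in WT/WT. XTH8 (AT1G11545) averaged 57.3 ± 11.5, 52.5 ± 6.99 and 54 ± 13.1 CPM in cpd/cpd, WT/cpd and cpd/WT, against 63.9 ± 8.91 CPM in WT/WT. XTH10 (AT2G14620) averaged 2.61 ± 0.196, 2.71 ± 0.514 and 3.29 ± 0.572 CPM in cpd/cpd, WT/cpd and cpd/WT, against 2.2 ± 0.883 CPM in WT/WT. XTH28 (AT1G14720), known from stamen development, had 48.1 ± 2.5 CPM in cpd/cpd, 44.1 ± 5.37 CPM in WT/cpd, 44.7 ± 6.56 CPM in cpd/WT and 46.8 ± 4.23 in WT/WT (SD, n = 5 each).

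Levels of tandem neighbours were alike in some pairs and apart in others. XTH23 and XTH14, the closest pair, had mean levels of 33.4 and 34.2 CPM per kb over all libraries. On chromosome 5 the genes XTH12, XTH13, XTH25 and XTH22 follow each other on the minus strand with gaps of 1097, 686 and 565 bases. Their mean levels over all libraries were 5.10, 3.48, 0.0641 and 79.4 CPM per kb. On chromosome 4 XTH24, XTH18 and XTH19, with gaps of 5161 and 1500 bases, had 177, 36.3 and 41.7 CPM per kb.

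Of the genes that build and trim xyloglucan, 0 to 2 of 19 were called in each group comparison. All 19 genes of that list were tested. In WT/cpd and in cpd/WT 2 of 19 were higher and 0 lower than in WT/WT, both times XXT1 (AT3G62720), a xylosyltransferase of xyloglucan synthesis, and XLT2 (AT5G62220), a galactosyltransferase. These counts stand near the 9.45% and 9.11% of all genes called in the same comparisons. XXT1 averaged 35.6 CPM in cpd/cpd, 72.4 CPM in WT/cpd, 74.8 CPM in cpd/WT and 30.1 CPM in WT/WT, with an interaction of -2.33 ± 0.50 on the log2 scale (adjusted p = 0.0092). Between cpd/cpd and cpd/WT, where 1.86% of all genes were called, the 2 of 19 called higher were XYL1 (AT1G68560, 1.56-fold, adjusted p = 0.038) and BGAL10 (AT5G63810, 1.43-fold, adjusted p = 0.047), which encode the xylosidase and galactosidase that trim xyloglucan. XYL1 was also the 1 gene of 19 called in cpd/cpd over WT/WT (1.6-fold, adjusted p = 0.012), and 0 of 19 were called between cpd/cpd and WT/cpd.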

How the data were processed

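Whole-root RNA (RNeasy Plant Mini Kit) went into NEBNext Ultra II Directional libraries, per the labels' protocols. The submitters' processing notes name STAR and TAIR10. The counting tool, its annotation release and its strand setting are unknown from the sources used here. What the authors deposited is a single table of raw, unnormalized counts for 32833 gene codes in 20 libraries, and every column was matched to a sample through its label.

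Genes with low counts were removed with filterByExpr by group, and TMM scaling and robust quasi-likelihood F tests followed in edgeR 4.0.16 (R 4.3.3), with 1 mean per group over all 20 libraries. The SE is the size of the log2 fold change over the square root of F. CPM are counts per 1 M of the scaled library. Limits at a count of 0 cover counting error only. Simulated counts with known changes served to test these steps. Alternatives used DESeq2 1.42.0, limma 3.58.1, other filters and scaling, the replicate number as a block, and fewer libraries. Libraries of 1 group differed beyond sampling noise (chi-square per degree of freedom of 6 to 51.9 over 40 pairs), so all 20 were used.

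The members, lists and rules were chosen with earlier results of these data known. Every member was accounted for. Those called in any comparison are described, with the value in every library for the 12 of smallest adjusted p and the 3 most abundant per length. Gene models, names, coordinates and sequences are from RefSeq TAIR10.1, in which all 33 codes carry an XTH name or synonym. Coding identity comes from a mafft alignment.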

Additional observations from a re-analysis of the deposited data

Results flagged for a closer look

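In 7 members the effect of a cpd root under a cpd shoot (cpd/cpd minus cpd/WT) differed from that under a WT shoot (WT/cpd minus WT/WT) in the interaction test of edgeR. On the log2 scale the difference was -3.51 for XTH26, -2.81 for XTH11, -2.62 for XTH22, -1.49 for XTH23, 0.81 for XTH4, 1.01 for XTH20 and 1.05 for XTH9.

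Single libraries stood far from the other 4 of their group in 6 of 112 combinations of member and group, and chance flags about 1 in 20. In cpd/cpd replicate 4, XTH20 was at 14.3 CPM against at least 29.7 in the others and XTH27 at 118 CPM against at most 83.1. XTH8 was at 76.3 CPM in cpd/WT replicate 2 (others at most 51.6), XTH18 at 75.1 CPM in cpd/WT replicate 3 (others at most 55.5) and XTH13 at 2.90 CPM in cpd/WT replicate 5 (others at least 4.30). XTH30 was at 119 CPM in WT/WT replicate 5 (others at most 96.9).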

How the results depend on the processing

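Of 37 calls of a single member in a comparison, 21 held in every alternative and 16 were lost in at least 1, and 0 changed direction. Counts of called members are given in the order cpd/cpd over cpd/WT, cpd/WT over WT/WT, cpd/cpd over WT/cpd, cpd/cpd over WT/WT and interaction, where the main counts were 0, 9, 2, 7 and 7. With limma sample weights they were 4, 14, 6, 13 and 12. With the DESeq2 Wald test cpd/cpd over WT/WT had 12, including XTH2, and the interaction 11. Without the 4 least typical libraries cpd/cpd over cpd/WT had 3 and cpd/cpd over WT/WT 12. With only the compared groups fitted, cpd/cpd over cpd/WT had 1 and cpd/cpd over WT/cpd 1, and the stricter filter left 1 in the last. The interaction needs all groups and has no such value. Other counts from the alternatives named here or in the methods stayed within 1.5 times the main count. Shares of all genes called are not given for these alternatives, for single libraries left out or for the replicate block. The counts therefore do not show whether XTH members changed more than other genes did.

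Leaving out each library in turn gave 8 to 15 calls for WT/cpd over WT/WT (main 12, lowest without WT/cpd replicate 1), 0 to 1 for cpd/cpd over cpd/WT (1 without WT/cpd replicate 2), 4 to 11 for cpd/WT over WT/WT (4 without WT/WT replicate 1 and 5 without replicate 3), 1 to 3 for cpd/cpd over WT/cpd (1 without cpd/cpd replicates 3, 4 or 5 or WT/cpd replicates 1 or 3), 4 to 9 for cpd/cpd over WT/WT (4 without cpd/cpd replicates 1 or 3 or WT/WT replicates 1, 2 or 5) and 4 to 8 for the interaction (4 without cpd/cpd replicate 5, WT/cpd replicate 1 or WT/WT replicate 1). The causes were not tested.

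Replicate numbers are shared by the groups, but 5 of 30 same-numbered pairs had a correlation of deviations over 0.1 (from -0.514 to 0.433), and 3 of 20 libraries were closest to one with their own number. With the replicate number as a block, 11, 0, 8, 2, 5 and 6 members were called (WT/cpd over WT/WT first, then as above).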
